A study of Mus musculus with 12 samples.

Results

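The cells described here are joint fibroblasts that carry transcripts of at least 4 of the 6 genes C1qtnf3, Spon2, Matn4, Angptl1, Cthrc1 and Mdk. A cell was taken when it had from 501 to 4999 detected genes, when at least 4 of the fibroblast genes Dcn, Lum, Gsn, Pdpn, Pdgfra, Fbln1 and Serpinf1 had a count, when at least 4 of those 6 defining genes had a count, and when at most 2 of 4 tendon genes (Mkx, Scx, Thbs4 and Kera) had a count. The cells were thus chosen by the detection of 17 measured genes. There were 2264 such cells, called the C1qtnf3 set, among 15529 fibroblasts that met the other steps (14.6%) and 20213 cells within the gene limits (11.2%). The other 13265 fibroblasts serve as the background. The series profiled CD45-negative synovial cells of mouse hind limbs by droplet 3′ single-cell RNA sequencing, in which each transcript molecule is counted once as a unique molecular identifier (UMI). All mice were wild-type (WT) male C57BL/6 animals of 8 to 10 weeks. They were left untreated (rest, day 0) or given serum-transfer arthritis (STIA) by 100 µl of K/BxN serum, and were taken at peak (days 7 to 9), resolving (day 15) or resolved disease (day 22). Each of the 4 labels had 3 libraries, and each library pooled cells of 3 animals.

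Fibroblasts of a joint make the collagen-rich matrix of the capsule, the sublining and the entheses, and those of the lining coat the joint surface with lubricin. C1qtnf3 encodes a secreted protein of the C1q and tumour necrosis factor related family, also known as cartducin or CTRP3. Spon2 encodes the matrix protein mindin, Matn4 the matrix protein matrilin-4, Angptl1 a secreted angiopoietin-like protein, Cthrc1 a secreted protein with a collagen triple helix repeat, and Mdk the heparin-binding growth factor midkine. Serum-transfer arthritis is driven by antibodies to glucose-6-phosphate isomerase and resolves after the antibodies clear, so the labels follow one inflammatory episode.

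The 6 defining genes lie on 4 chromosomes of the mouse genome (GRCm38, GENCODE M21) and all are protein coding. C1qtnf3 is at chr15:10952332-10980150 on the plus strand, and Cthrc1 at chr15:39076932-39087121 on the same strand. Matn4 is at chr2:164389393-164405160 and Mdk at chr2:91929805-91932297, both on the minus strand. Spon2 is at chr5:33198184-33218455 on the minus strand, and Angptl1 at chr1:156838562-156861078 on the plus strand. RefSeq promoters (GRCm38.p6) were at hand for 3 of the 6 genes. The 250 bases before the start are shown for C1qtnf3 and Matn4, since they name the set and their RefSeq and GENCODE starts coincide. The first is chr15:10952082-10952331 on the plus strand and the second chr2:164405161-164405410 on the minus strand. Capitals mark matches of CANNTG, the E-box that basic helix-loop-helix factors bind, and of TATAAA, the core of the TATA box, both searched on both strands.
C1qtnf3: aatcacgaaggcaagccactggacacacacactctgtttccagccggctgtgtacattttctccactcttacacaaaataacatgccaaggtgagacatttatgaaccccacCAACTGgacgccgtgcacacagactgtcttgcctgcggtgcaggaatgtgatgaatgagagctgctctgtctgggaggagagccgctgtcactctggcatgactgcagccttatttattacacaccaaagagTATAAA
Matn4: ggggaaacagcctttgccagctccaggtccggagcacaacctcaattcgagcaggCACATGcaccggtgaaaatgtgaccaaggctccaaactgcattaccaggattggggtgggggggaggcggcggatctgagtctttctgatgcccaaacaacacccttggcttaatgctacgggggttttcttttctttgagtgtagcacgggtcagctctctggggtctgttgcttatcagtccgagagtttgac
Each window held 1 match of CANNTG, which began 138 bases before the C1qtnf3 start and 195 bases before the Matn4 start. The C1qtnf3 window also held 1 match of TATAAA, beginning 6 bases before the start, and the Matn4 window held none. Of 32851 promoter windows of the same length, 66.2% held CANNTG and 12.4% held TATAAA, so the E-box match is common and the TATAAA match less so.

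Some features of the libraries come before the results. Cell barcodes carry a suffix from 1 to 12, and in sums over the C1qtnf3 set the most similar library always came from the same run of 3 consecutive suffixes (12 of 12 libraries) and never from the same label (0 of 12). Suffixes 1 to 3 are rest 1, peak 1 and resolving 1. Suffixes 4 to 6 are resolved 1, rest 2 and peak 2, suffixes 7 to 9 are resolving 2, resolved 2 and rest 3, and suffixes 10 to 12 are peak 3, resolving 3 and resolved 3. The labels name no such runs, and what the runs stand for was not tested. The group of each library was taken from its label as given, and whether labels and libraries are crossed was not tested, so each value by label below rests on the labels. No barcode was shared between libraries. The set was uneven, since its libraries held from 27 to 776 member cells and from 302743 to 6007633 UMIs. A deeper cell has more chances to show 4 of 6 genes: the median was 8595 UMIs in the C1qtnf3 set and 5394 in other fibroblasts, and the matching medians of detected genes were 2461.5 and 1806. All intervals below cover counting error only.

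The name fibroblast was checked against markers of other skeletal cells, and it did not hold in the libraries with suffixes 1 to 3. There, 48.1% to 69.1% of the set had at least 3 of 6 osteoblast markers (Bglap, Bglap2, Ibsp, Sp7, Alpl, Dmp1), and 33.3% to 58.2% had at least 3 of 6 chondrocyte markers (Acan, Col2a1, Sox9, Hapln1, Chad, Col9a1). In the 9 libraries with suffixes 4 to 12 the shares were 0.448% to 16.9% and 6.12% to 29.1%. Col2a1, the main collagen of cartilage, stood at 11400, 14959 and 9305 CPM (UMI counts scaled to a total of 1000000 per library sum) in the set of suffixes 1 to 3 and at 2.67 to 664 CPM in the others. These 3 libraries hold 111 of the 2264 cells, so they weigh little on counts of cells and as much as any other library on averages over libraries. Over all libraries, osteoblast markers reached 3 in 6.63% of the set and 11.6% of the other fibroblasts, and chondrocyte markers in 19.0% and 6.48%. At least 3 markers of either skeletal type were found in 510 cells of the set (22.5%), beside 15.8% of the other fibroblasts. Without them 1754 cells remained, and 2 libraries (peak 1 and resolving 1) fell below 10 cells. Shares by suffix run, label contrasts, gene counts beside the other fibroblasts and the test over suffix runs are given both ways. The gene lists, the interaction and most single ratios are given only with the 510 cells kept.

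Markers of vessel, muscle and immune cells were rare in the set. At least 3 markers were found in 0.353% of cells for vascular endothelium, 0.221% for perivascular cells, 0.265% for muscle, and 0% for immune cells. Lining markers (Prg4, Clic5, Tspan15, Htra4, Itga6) reached 3 in 0.442% of the set and 4.84% of the other fibroblasts, and sublining markers in 37.6% and 28.3%. By level the sublining markers leaned the other way, with a summed median of 561 CPM in the set and 1341 CPM in the others. Deeper cells have more chances to show 3 markers, and the set was deeper. Cycling markers reached 3 in 5.57% of the set and 3.68% of the others, and in 8.28% to 16.4% of the set in suffixes 4 to 6. Tenocyte markers (Tnmd, Mkx, Scx, Thbs4, Kera, Fmod, Chodl) reached 3 in 53.4% of the set and 15.6% of the others, although the rule admits at most 2 of Mkx, Scx, Thbs4 and Kera. The tendon step had removed 420 further cells with at least 4 defining genes, which are 46.6% of the 901 tendon-rich cells. Of the members, 892 had exactly 2 of the 4 tendon genes, the most the rule admits.

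**Figure D1:**
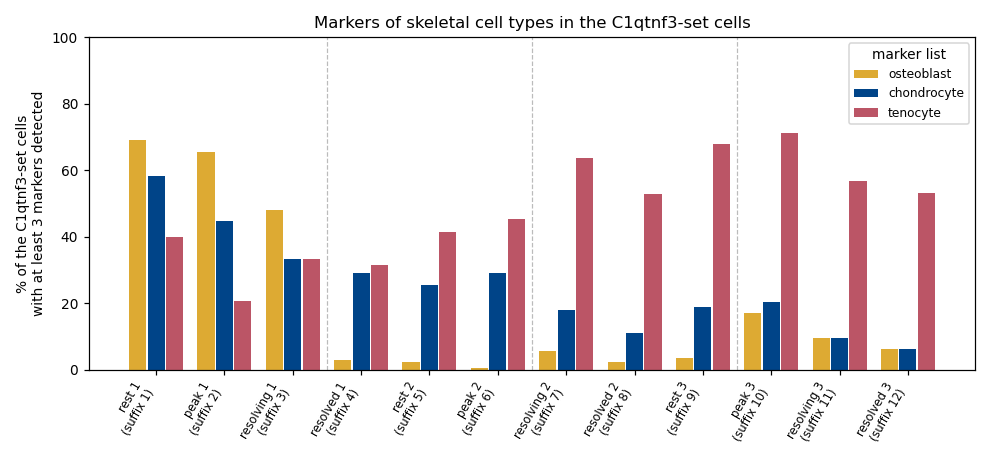
Share of the C1qtnf3-set cells (vertical axis, %) with at least 3 detected markers of osteoblasts, chondrocytes or tenocytes, in each of the 12 libraries in suffix order; dashed lines part the suffix runs. The osteoblast bars stand at 48.1% to 69.1% for suffixes 1 to 3 and at 16.9% or below for suffixes 4 to 12.

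The size of the set varied widely within each disease label. As a share of fibroblasts it was 4.02% in rest 1 (95% Clopper-Pearson interval 3.05% to 5.21%), 11.5% in rest 2 and 32.7% in rest 3. At peak it was 2.85%, 16.8% and 3.21%, at resolving 2.88%, 27.6% and 7.84%, and at resolved 12.5%, 35.3% and 4.79%, in the order of the replicates. The labels thus overlapped widely, and every label spanned low and high libraries. The mean was 16.1% ± 14.9 (SD, n = 3) at rest, 7.62% ± 7.96 at peak, 12.8% ± 13.1 at resolving and 17.5% ± 15.9 at resolved. No label differed from rest by more than its libraries differed among themselves (exact permutation test, two-sided, p = 0.5 for peak, p = 0.6 for resolving and p = 0.7 for resolved, all adjusted to 0.7), and 3 libraries against 3 cannot give a p below 0.1.

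By suffix, the ranges of the 2 middle runs overlapped with no other run. The shares were 2.85% to 4.02% for suffixes 1 to 3, 11.5% to 16.8% for 4 to 6, 27.6% to 35.3% for 7 to 9 and 3.21% to 7.84% for 10 to 12, where the intervals of the lowest (2.45% to 4.12%) and the highest (6.30% to 9.63%) library did not overlap. Suffixes 7 to 9 supplied 1436 of the 2264 cells (63.4%). The median depth of member cells was 7273.5 to 8569 UMIs for suffixes 7 to 9, where the shares were highest, and 11067 to 11950.5 for suffixes 4 to 6. After thinning every cell to 2000 UMIs, 704 cells met the rule, and the shares became 0% to 0.516%, 0.479% to 1.77%, 14.1% to 18.9% and 0.864% to 1.74%. Suffixes 7 to 9 thus stayed apart at equal depth, and suffixes 4 to 6 no longer stood apart from 10 to 12. Without cells holding bone or cartilage markers the shares were 0.845% to 1.39%, 9.55% to 13.8%, 25.6% to 35.1% and 2.61% to 7.61%. Fewer cells of a type cannot be told apart here from cells of that type with fewer defining transcripts.

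**Figure D2:**
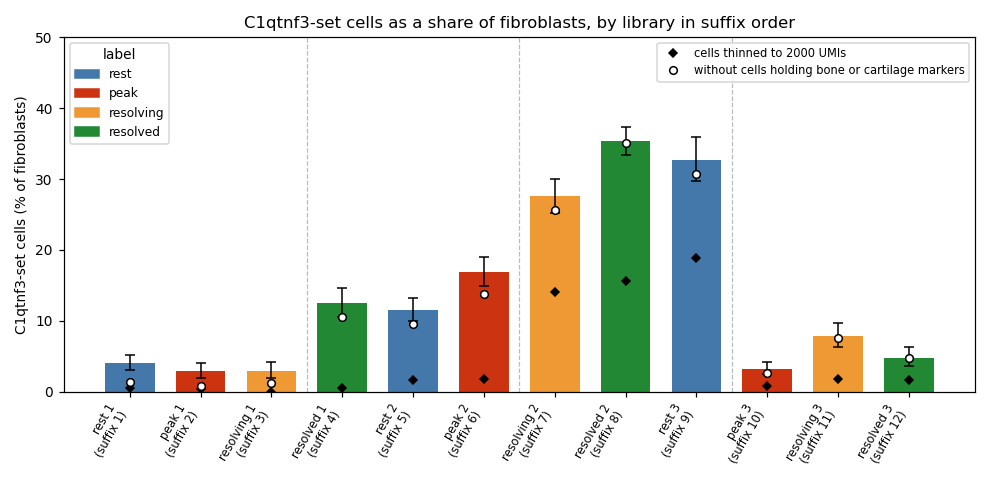
C1qtnf3-set cells as a percentage of fibroblasts (vertical axis) in each library, ordered by barcode suffix and coloured by label; error bars are 95% Clopper-Pearson intervals, diamonds are shares after thinning to 2000 UMIs and open circles are shares without cells holding bone or cartilage markers. The bars for suffixes 7 to 9 reach 27.6% to 35.3% and are rest, resolving and resolved libraries, with no peak library among them.

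The defining genes chose the cells, so their levels are a description and carry no test. C1qtnf3 ran from 202 to 875 CPM in the set, with a median of 443 over the 12 libraries, and from 10.7 to 165 CPM with a median of 47.0 in other fibroblasts. Spon2 ran from 69.5 to 468 CPM (median 239) in the set and from 16.3 to 99.6 (median 32.1) in the others. Both genes were higher in the set in every library, with median log2 ratios of 3.04 and 2.46. Cthrc1 was the most abundant of the 6, at 661 to 3076 CPM in the set against 100.4 to 1334. Mdk had a median log2 ratio of 1.64, Angptl1 of 1.55 and Matn4 of 0.97. Matn4 was the weakest marker, with a count in 39.8% of the set, while Cthrc1 was counted in 99.2%, Angptl1 in 90.4%, C1qtnf3 in 77.4%, Mdk in 76.4% and Spon2 in 67.0%. In 1953 cells with endothelial markers (median 3303 UMIs), Cthrc1 had a count in 14.3% and the other 5 genes in 1.13% to 3.17%. Whether free RNA, doublets or expression gave these counts was not tested, and these cells were shallower than the set.

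The genes did not share a single pattern across libraries. Even so, the means of C1qtnf3, Spon2, Matn4, Angptl1 and Mdk in the set were each highest in suffixes 7 to 9. These means were 728, 439, 275, 763 and 375 CPM in that order. In the set, Angptl1 was at 196 to 257 CPM for suffixes 1 to 6 and at 492 to 950 for suffixes 7 to 12. Spon2 followed the same division, with 69.5 to 218 CPM in suffixes 1 to 6 and 259 to 468 in suffixes 7 to 12. C1qtnf3 was instead highest in rest 3 (875 CPM), peak 2 (723 CPM) and resolved 2 (722 CPM), and lowest in resolving 1 (202 CPM). Matn4 was at 438 CPM in rest 3 and at 59.9 to 217 CPM in the other 11 libraries. Of the fibroblast genes in the rule, Gsn, which encodes the actin-severing protein gelsolin, was far lower in the set, at 607 to 3855 CPM against 4652 to 34231 CPM, and the 2 ranges did not overlap. Its median log2 ratio was -3.06, and -1.65 with other fibroblasts matched to the set in UMIs per cell. At the border of the rule, the 1343 cells with exactly 4 defining genes had a median of 8332 UMIs, 24 of them from the 6 genes, and the 2093 cells with exactly 3 had a median of 7606 UMIs, 12 of them from the 6 genes. All 6 genes were counted in 217 cells.

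**Figure D3:**
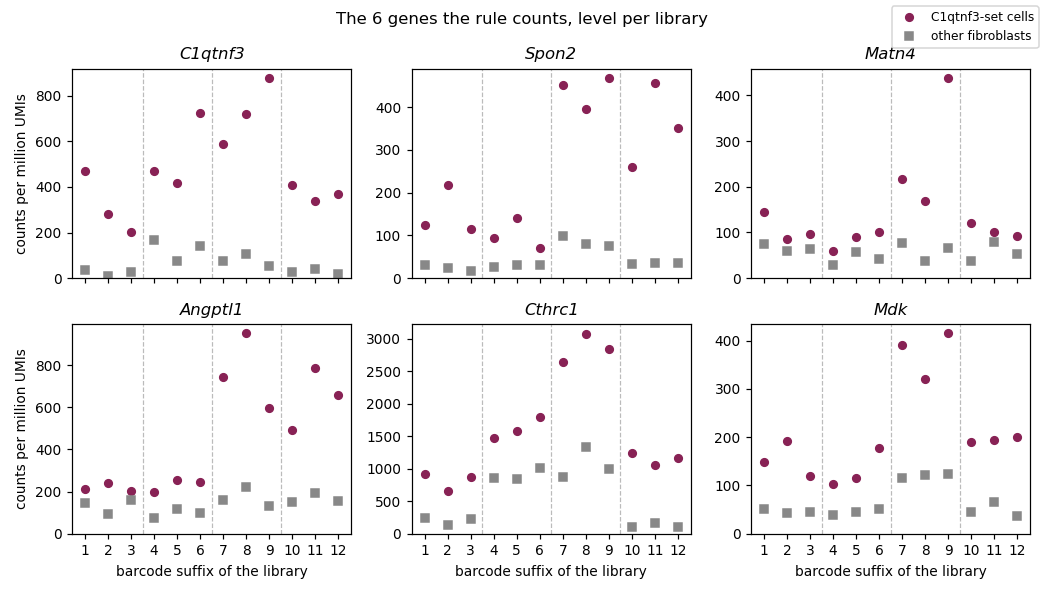
Level of each of the 6 defining genes (vertical axes, CPM, each from 0) against the barcode suffix, as 1 point per library for the C1qtnf3 set and 1 for other fibroblasts; dashed lines part the suffix runs. Each gene is higher in the set in every library, Spon2 and Angptl1 step up from suffix 7 on, and Matn4 peaks at 438 CPM in suffix 9.

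Of 2682 genes that the rule did not use, with at least 50 CPM on average in the set or in the other fibroblasts, 26 (0.969%) were higher in the set in every library with a median ratio of at least 2, and 64 (2.39%) were lower in every library to the same extent. This contrast was made by the rule and has no test, and the median log2 ratio over all genes was -0.04. The highest was Lrrc15, a surface protein of matrix-producing fibroblasts and myofibroblasts, at 31.1 to 204 CPM (median 142) against 15.4 to 73.8 CPM (median 27.9), a median log2 ratio of 2.03. It was lowest in suffixes 4 to 6, at 31.1 to 59.8 CPM. Postn, which encodes the matricellular protein periostin, stood at 1281 to 3250 CPM (median 2570) against 316 to 1317 CPM (median 879), a ratio of 1.53 on the log2 scale. Mmp14, a membrane-bound collagenase, had a ratio of 1.30, and Prss35, a serine protease family member, of 1.65.

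Other genes at the top encode parts of the fibre network and secreted regulators. The microfibril-associated genes Mfap4 and Mfap2 had median log2 ratios of 1.42 and 1.27, with 534 ± 159 CPM (SD, n = 12) against 197 ± 49.8 CPM for Mfap4. Col11a1, a minor fibrillar collagen, had a ratio of 1.40, and its highest value, 2911 CPM, was in a library of suffixes 1 to 3. Dkk3, of the Dickkopf family, and Sfrp2, a secreted Frizzled-related protein, both of the Wnt pathway, were at 334 ± 147 against 114 ± 41.0 CPM and at 760 ± 479 against 322 ± 229 CPM. Ddah1, which degrades asymmetric dimethylarginine, had a ratio of 1.64. Angptl2 and Ptn, relatives of the defining genes Angptl1 and Mdk, had ratios of 1.43 and 1.39. Both were low in suffixes 4 to 6, where Angptl2 stood at 162 to 219 CPM and Ptn at 372 to 465 CPM, and Ptn was low in suffixes 11 and 12 as well (378 and 435 CPM). Sfrp2 was barely above the other fibroblasts in one library, at a log2 ratio of 0.02.

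Of the 5 lining markers, Prg4 alone reached 50 CPM, and it was among the lowest genes. Prg4, which encodes lubricin, was at 209 to 2214 CPM in the set (median 911) against 4986 to 25737 CPM (median 8045), a median log2 ratio of -3.25 with no overlap of the ranges. F13a1, the A chain of coagulation factor XIII, had a ratio of -3.40 and 10.1 ± 6.11 CPM against 107 ± 34.4 CPM (SD, n = 12). Procr, the endothelial protein C receptor, had -2.52, and Pcsk6, a proprotein convertase, had -2.72. Ccl11, the chemokine eotaxin, was at 0 to 17.9 CPM against 44.5 to 165 CPM, a ratio of -4.37. Coch, the secreted protein cochlin, was at 0 to 2.95 CPM against 27.7 to 219 CPM, a ratio of -5.26. Myoc, which encodes myocilin, was also lower, at -2.63, as were Sparcl1 (-2.93), Inmt (-3.71), Krtdap (-3.78), Pla1a (-3.73) and Cytl1 (-3.38). Several of these ratios rest on few counts, since Coch, Ccl11, Krtdap, Pla1a, Inmt, Sparcl1 and Pcsk6 were at 0 in at least 1 library of the set.

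These ratios were also computed at matched depth. With other fibroblasts matched to the set in UMIs per cell, 32 genes were higher and 39 lower, of which 16 and 26 were among the 26 and 64 above. Prg4 then stood at -4.04 and Lrrc15 at 1.52, while Coch moved to -1.75, Inmt to -1.42 and Myoc to -1.08. Of the genes named here as higher or lower, Col11a1 (0.73), C1qtnf6 (0.88), Col1a1 (0.94), Col12a1 (0.91), Wisp1 (0.31) and Msx1 (-0.70) then fell short of a ratio of 2. Without cells holding bone or cartilage markers, 37 genes were higher and 70 lower, 22 and 51 of them shared, and Lrrc15 was at 1.31. Leaving out suffixes 1 to 3 gave 32 and 65, with 16 and 51 shared, and a ratio of 1.21 for Lrrc15.

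**Figure D4:**
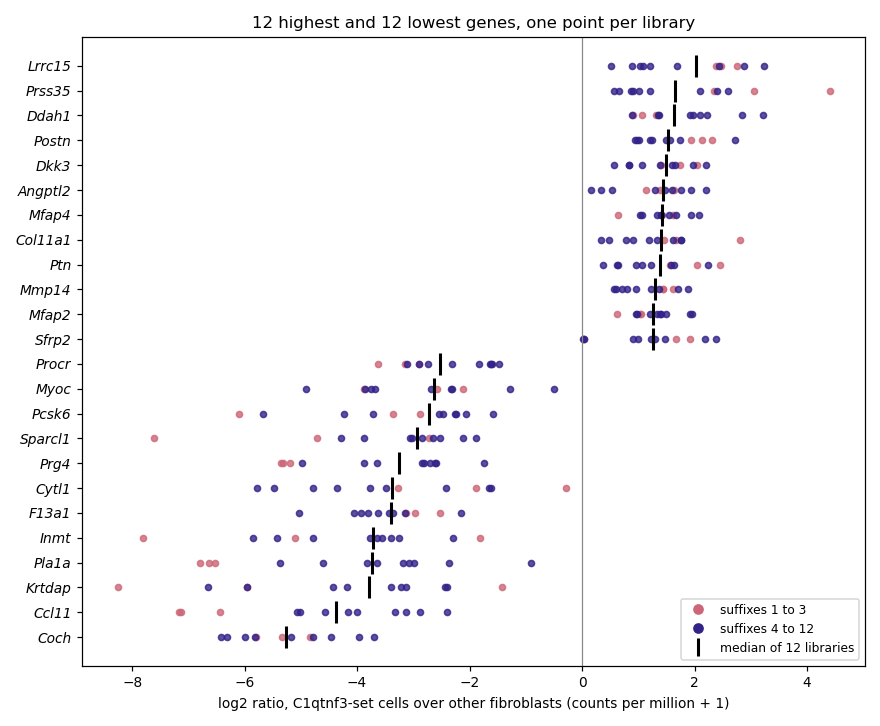
Log2 ratio of the C1qtnf3 set over other fibroblasts (horizontal axis, CPM with 1 added to both) for the 12 highest and 12 lowest genes outside the rule, 1 point per library and a bar at the median of 12 libraries. Every point of the upper 12 genes lies above 0 and every point of the lower 12 below 0, with Lrrc15 at the top (median 2.03) and Coch at the bottom (median -5.26).

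Relatives of the defining genes were followed as families. Of the C1q and tumour necrosis factor related proteins, C1qtnf6 was higher in every library (334 ± 111 against 145 ± 70.4 CPM, median log2 ratio 1.17). C1qtnf1 (0.92) and C1qtnf2 (0.86) leaned the same way without reaching a ratio of 2, C1qtnf7 was at -0.43, and C1qtnf4, C1qtnf5 and C1qtnf9 were below 10 CPM on average in both groups. Spon1, the other spondin, had a ratio of 0.62. Among the matrilins, Matn2 had a ratio of 0.39, while Matn3 and Matn1, which are cartilage genes, followed the libraries: Matn3 was at 1942 to 2648 CPM in suffixes 1 to 3 of the set and at 1.98 to 55.9 CPM in the others. Angptl7 (-0.89) and Angptl4 (0.25) had ranges of the ratio that crossed 0, and Angptl6 and Angptl8 were below 4 CPM on average in both groups. Of these relatives with at least 50 CPM, C1qtnf6, Angptl2 and Ptn were higher in every library with a median ratio of at least 2.

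Matrix lists differed in how far they followed the set. Of 23 collagen genes with at least 50 CPM, 4 were higher in every library and 1 lower, beside 0.969% and 2.39% of all genes, and the list had a median log2 ratio of 0.60 against -0.04 over all genes. Col1a1 was at 14921 ± 3396 CPM against 7377 ± 2480 CPM (SD, n = 12; ratio 1.08), Col12a1 at 641 ± 252 against 248 ± 84.4 CPM (1.09), and Col8a2 had a ratio of 1.06. Col4a1, a basement membrane collagen, was lower (-1.28). Col22a1, a collagen of tissue junctions, had a ratio of -3.22 below the level of 50 CPM, and Col10a1, of hypertrophic cartilage, was found mostly in a single library of the set, resolving 1, at 201 CPM. Of 17 myofibroblast and scar genes 4 were higher (Lrrc15, Postn, Itga11 and Wisp1) and none lower, beside the same 0.969% and 2.39% of all genes, with a list median of 0.37. At matched UMIs per cell Col11a1, Col1a1, Col12a1 and Wisp1 fell short of a ratio of 2. The rule made this contrast, so nothing is read from these counts. Acta2, the smooth muscle actin of contractile myofibroblasts, was at 144 ± 50.5 against 152 ± 98.6 CPM.

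The rule capped part of the tendon list. Of 14 tendon genes outside the rule, Col12a1 alone was called higher and none lower, beside 0.969% higher and 2.39% lower over all genes. The list median was 0.23, and Col12a1 fell short of a ratio of 2 at matched UMIs per cell. The summed level of the whole tendon list had a median of 19691 CPM in the set and 26022 CPM in the other fibroblasts. Fmod, the tendon proteoglycan fibromodulin, had a ratio of 0.94 and Tnmd, a marker of mature tenocytes, of 0.92, each higher in 12 of 12 libraries. The rule genes Kera (1.16) and Scx (1.14), the tendon transcription factor, can only be read as description. Among 10 small leucine-rich proteoglycans, Aspn, which encodes asporin, was higher (3635 ± 1652 against 1600 ± 571 CPM; ratio 1.17), Epyc had a ratio of 1.51 in 10 of 12 libraries, and Chad, of cartilage, had -1.51 with 3 libraries above 0.

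The signalling lists differed in their counts. Of 8 Wnt pathway genes 3 were higher (Dkk3, Sfrp2 and Wisp1) and Wif1, a secreted Wnt inhibitor, was lower (28.3 ± 27.4 against 111 ± 72.7 CPM; ratio -2.02), beside 0.969% higher and 2.39% lower over all genes. Wisp1 fell short of a ratio of 2 at matched UMIs per cell. Of 19 genes of the TGF-beta and BMP pathway none was called either way, and the list median was 0.01. Bmp4 (-1.38), Bmp2 (-1.07), Bmp5 (-0.99) and Gdf10 (-0.85) were its members farthest from 0, and stood at -0.27, -0.70, -0.29 and 0.08 at matched UMIs per cell. Of 7 genes of limb position, Msx1 was lower (-1.23), and Twist2 (-0.68), Hoxc10 (0.58) and Prrx2 (0.51) were not called. None of 7 midkine receptor genes was called. Of the immediate early and stress list, which rises during tissue digestion, none of 20 genes was called, and its summed level was 15125 to 45213 CPM in the set and 17316 to 32933 CPM in the other fibroblasts.

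Against 3 nearby kinds of fibroblast the set had a level of its own for a few genes. Tendon-rich cells (at least 3 of Mkx, Scx, Thbs4 and Kera) resembled it in C1qtnf3 (median 311 CPM, beside 443 in the set) and in Mfap4 (736 beside 511). They differed in Tnmd, at 565 to 2722 CPM (median 1829) against 83.4 to 1132 CPM (median 361), and in Lrrc15, at a median of 55.8 CPM against 142. Coch was at a median of 255 CPM in tendon-rich cells and 1.07 CPM in the set. Lining-like cells, 642 in number, had Prg4 at 40117 to 132500.0 CPM, C1qtnf3 at 0 to 17.6 CPM and Postn at 4.26 to 257 CPM. They shared Matn4 with the set, at 116 to 443 CPM against 59.9 to 438 CPM. Sublining-like cells, 3149 in number, had Lrrc15 at a median of 20.6 CPM, Ptn at 84.1 CPM against 1052 CPM, and Ccl11 at 120 CPM against 3.60 CPM. These kinds were set by detection of their own markers, so the values describe them and were not tested.

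The study asked how fibroblast genes change with disease and with hexokinase 2, the glycolytic enzyme encoded by Hk2. In the set Hk2 was at 113, 184 and 59.0 CPM at rest, 85.5, 168 and 101 CPM at peak, 85.9, 110 and 236 CPM at resolving, and 156, 72.9 and 162 CPM at resolved. The 4 labels overlapped. Its level was lower than in the other fibroblasts in 11 of 12 libraries (128 ± 53.1 against 196 ± 59.97 CPM; median log2 ratio -0.65), and -0.20 with cells matched in UMIs. Hk1 was at 22.5 ± 11.4 against 23.5 ± 4.68 CPM. Ccl2, the monocyte attractant, had a ratio of -1.20 and Cxcl1, a neutrophil attractant, of -0.70, both lower in 11 of 12 libraries. Cxcl2 had -1.19, Timp1 -0.24, Mmp3 -0.11 and Col3a1 0.60.

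Within the set, no gene passed the threshold (adjusted p under 0.05 and a log2 fold change over 0.5) between any later label and rest. edgeR's quasi-likelihood test on sums per library called 0 of 8854 genes (0%) at peak, at resolving and at resolved, in either direction, and DESeq2 also called 0. At an unadjusted p under 0.05 there were 69, 144 and 82 genes. For Hk2 the log2 difference from rest was 0.00 ± 0.51 (SE) at peak, 0.32 ± 0.51 at resolving and 0.11 ± 0.51 at resolved. Postn had 0.19 ± 0.36, -0.03 ± 0.36 and -0.13 ± 0.36, and Col1a1 -0.27 ± 0.31, -0.22 ± 0.31 and -0.16 ± 0.31. As a description, since the rule used both, C1qtnf3 had -0.31 ± 0.47, -0.59 ± 0.47 and -0.18 ± 0.47, and Matn4 had -1.11 ± 0.56, -0.64 ± 0.55 and -1.06 ± 0.56. With an SE of 0.51, a change of 2-fold in Hk2 could not be told from none, so a count of 0 does not show equal levels. The common coefficient of biological variation was 0.389 between libraries of a label and 0.158 between libraries of a suffix run.

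Whether a label acted differently in the set than in other fibroblasts was tested as an interaction, and 0 of 12725 genes (0%) passed in edgeR at any label, with 283, 316 and 246 at an unadjusted p under 0.05. With the suffix run as a block 0 genes passed in the label contrasts. Only when cells holding bone or cartilage markers were also left out, an alternative chosen after seeing the data, did some pass: 2 at peak, 16 at resolving and 10 at resolved. Of the 15 genes higher at resolving, 12 are genes of skeletal muscle, such as Ckm (log2 difference 6.04, adjusted p = 0.00701), which was at 113 CPM in resolving 2 and at 0 to 24.4 CPM in the other 11 libraries of the whole set. The other 3 are Ptx3 (log2 difference 1.76), Cxcl5 (1.69) and Maff (1.40). In that fit rest 1 was alone in suffixes 1 to 3, and rest and resolving shared a run only as rest 3 and resolving 2. Matn4 is counted among the genes at resolving and resolved, and carries no test because the rule used it.

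Between suffix runs the same cells differed widely. edgeR's F test over the 4 runs called 3717 of 8854 genes (42.0%) at an adjusted p under 0.05, and 2682 of 10234 without cells holding bone or cartilage markers, 2321 of them shared. The runs were chosen with their differences known, so these counts describe how far libraries stand apart. The 12 genes with the smallest adjusted p fall into 3 patterns. The first is cartilage-type genes high in suffixes 1 to 3. Col9a2, a cartilage collagen, was at 3300, 3898 and 2451 CPM there and at 1.33 to 85.5 CPM in the other 9 libraries. Papss2, an enzyme of sulfate donor synthesis, was at 296, 295 and 268 CPM against 13.03 to 34.8 CPM, and Ppa1, a pyrophosphatase, at 2576, 3022 and 3597 CPM against 67.2 to 218 CPM. Fxyd2, Col27a1 and Tgm2 followed the same pattern. Without cells holding bone or cartilage markers, Papss2, Col27a1 and Tgm2 no longer passed (adjusted p = 0.223, 0.322 and 0.395), and Ppa1, Col9a2 and Fxyd2 did (adjusted p = 0.00643, 0.0191 and 0.0192). Suffixes 1 to 3 were then a single library, rest 1, in which Ppa1 stood at 103 CPM, within the 78.9 to 207 CPM of the other 9. Rest 1 was still the highest for Fxyd2 (34.2 CPM against 0 to 15.7) and Col9a2 (22.8 CPM against 0 to 12.8), at low levels.

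The second pattern is genes high in suffixes 4 to 9, the acute-phase genes among them. Saa3, serum amyloid A3, was at 1368, 1234 and 739 CPM in suffixes 4, 5 and 6 and at 934, 580 and 962 CPM in 7, 8 and 9. It was at 0 to 5.93 CPM in the other 6 libraries. Hp, which encodes haptoglobin, was at 431 to 1209 CPM in suffixes 4 to 9 and at 0 to 27.7 CPM elsewhere. Both are inflammatory genes, and rest 2 and rest 3 are among the high libraries while peak 1 and peak 3 are among the low ones. Igfbp4, a binding protein for insulin-like growth factors, was at 2169 to 2908 CPM in suffixes 4 to 9, 1041 to 1292 in suffixes 10 to 12 and 227 to 248 in suffixes 1 to 3. Sfrp1, a secreted Wnt antagonist, was at 366 to 613 CPM in suffixes 4 to 6, 75.4 to 105 in suffixes 7 to 9 and 1.53 to 14.7 in the rest. The third pattern is genes high in suffixes 10 to 12: Ecm2, a matrix protein, at 662 to 836 CPM against 40.0 to 304 CPM, and Nbl1, a BMP antagonist, at 2667 to 3163 CPM against 258 to 1378 CPM. These 6 genes passed with and without the cells holding bone or cartilage markers (adjusted p from 3.71e-09 to 3.34e-06 without them). The division was also present in the other fibroblasts of the same libraries, where Saa3 was at 222 to 896 CPM in suffixes 4 to 9 and at 2.11 to 96.8 CPM elsewhere.

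**Figure D5:**
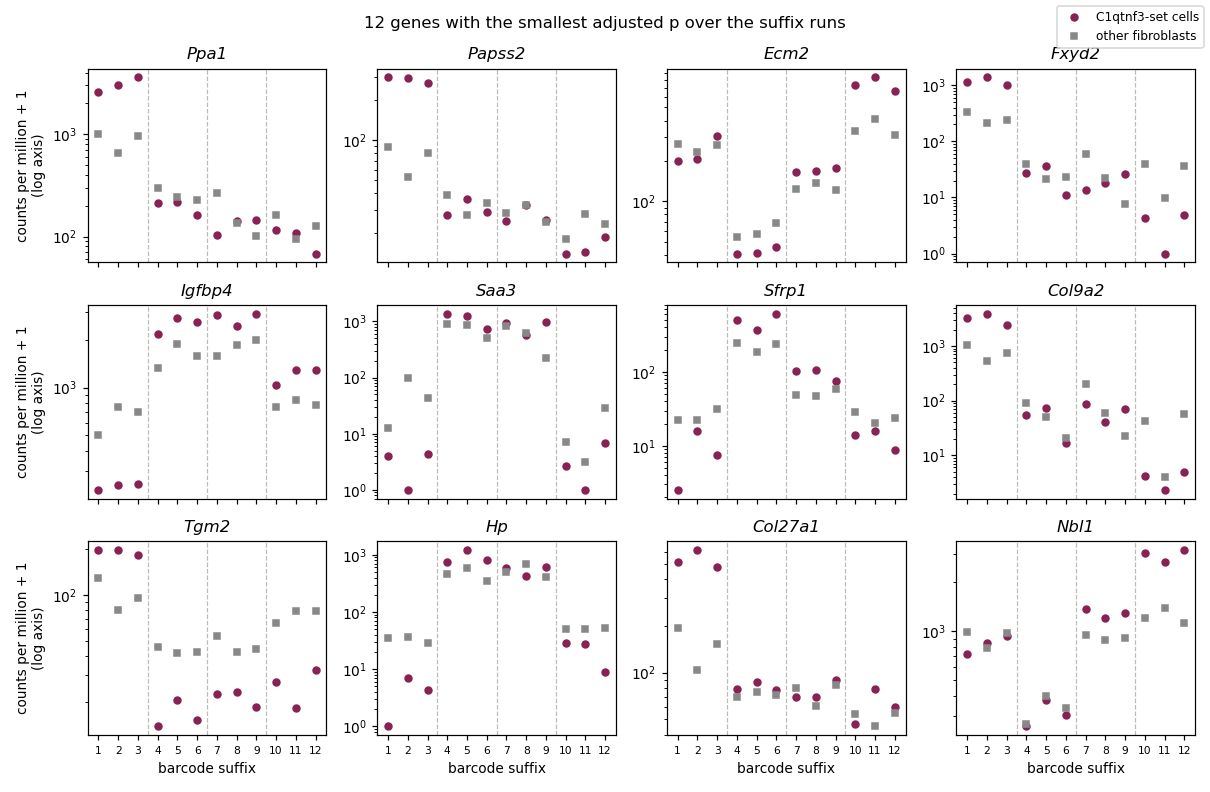
Level (vertical axes, CPM with 1 added, log scale) of the 12 genes with the smallest adjusted p over the suffix runs against the barcode suffix, 1 point per library for the C1qtnf3 set and 1 for other fibroblasts; dashed lines part the runs. Saa3 and Hp are high in suffixes 4 to 9, Ecm2 and Nbl1 in 10 to 12, and Col9a2 and Ppa1 in 1 to 3.

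The fixed lists were counted over the suffix runs as well. Of 28 collagens tested 26 passed, as did 19 of 21 tendon genes, 12 of 14 small leucine-rich proteoglycans, 31 of 36 genes of the TGF-beta and BMP pathway and 18 of 26 genes of limb position, beside 42.0% of all genes. The tendon and proteoglycan lists here hold genes of the rule, such as Kera, so their counts are a description. Genes with more counts pass such a test more readily, and the part of abundance in these counts was not tested.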

How the data were processed

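The deposited files hold UMI counts per gene and cell of 12 droplet libraries (10x Chromium, version 2 chemistry), which the authors made with Cell Ranger on mm10, per the labels. Each of the 12 libraries had exactly the same median, 5358 UMIs per deposited cell. Whether depth was made equal across libraries before deposit is not stated and was not tested. There were 21042 deposited cells over 27998 gene identifiers. Doublets were not called, and cells with 5000 or more detected genes were left out. The members and the gene lists were chosen with earlier results of these data known.

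Counts were summed per library over the C1qtnf3 set and over the other fibroblasts, since cells of a library are not replicates. Every library reached the minimum of 10 cells. Sums were tested in edgeR 4.0.16 (R 4.3.3; TMM scaling, expression filter, quasi-likelihood test, Benjamini-Hochberg adjustment), with DESeq2 1.42.0 as an alternative. The test steps were tested on simulated data with 200 changed genes. P-values measure the spread between libraries, each a pool of 3 animals. The contrast with other fibroblasts is described as log2 ratios of CPM with 1 CPM added. Named genes are the 17 of the rule, the 12 highest and 12 lowest in that contrast with at least 50 CPM, the 12 with the smallest adjusted p over suffix runs, the genes the study names, the families of the defining genes and the 4 members of each pathway list farthest from 0 with at least 20 CPM. Genes named for the fit with the suffix block and without bone or cartilage cells were chosen after their values were seen, as were Tnmd, Col8a2, Itga11, Col2a1 and those used to describe nearby cells.

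Same-numbered libraries of peak and rest deviated together (r = 0.77, 0.81 and 0.42), as did resolving and rest (r = 0.71, 0.53 and 0.32), and 3 of these 6 pairs share a suffix run. Those of resolved and rest did not (r = -0.24, -0.28 and 0.15). With the replicate block, 0 genes passed at each label.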

Additional observations from a re-analysis of the deposited data

How the results depend on the processing

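The share of the C1qtnf3 set at resolved minus rest was 1.45 percentage points and turned to -1.08 with at least 5 of 6 defining genes and to -1.13 with cells thinned to 2000 UMIs. Leaving out 1 library moved it from -7.44 (without resolved 2) to 9.77 (without rest 3), and also turned it without rest 1 or rest 2. For resolving the range was -10.7 (without resolving 2) to 4.9998 (without rest 3), turned as well without resolving 1, and for peak -14.5 to -0.144. No p passed 0.05 in any of these. With the replicate block the smallest p possible is 0.25, and p was 0.75, 0.75 and 1.

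The label contrasts called 0 genes in each alternative except the suffix block without bone or cartilage cells (2 at peak, 16 at resolving and 10 at resolved). With the replicate block, 299 genes at resolved had an unadjusted p under 0.05 (82 without it), with 0 calls. The interaction called 1, 3 and 1 genes (Krtdap, S100a8, Camp and Serpina1b) at peak, resolving and resolved with no filter on low counts. Leaving out 1 library gave 0 to 1 at peak (1 without peak 2 and 1 without resolved 1), 0 to 2 at resolving (2 without resolving 2 and 1 without resolved 1) and 0 to 1 at resolved (1 without peak 1 and 1 without peak 3).

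Over the suffix runs 1729 genes passed with the replicate block and 1227 with at least 5 of 6 defining genes, where 10 libraries remained, against 3717. Leaving out 1 library gave 2975 to 3743. Of the 12 named genes, 6 of 240 alternative values missed the threshold, among them Tgm2 and Col27a1 without suffixes 1 to 3.

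Beside the other fibroblasts, 17 genes in place of 26 were higher with 10 CPM added, and 39 in place of 64 were lower with UMIs matched. Leaving out 1 library gave 21 to 33 higher and 62 to 71 lower. No named gene that was called changed its side of 0 under any alternative, TMM scaling included, and the median over all genes was -0.04 under both scalings.

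Libraries with 27 to 59 member cells limit what can be seen at low expression. The cause of the changes in this section was not tested, other than that fewer cells enter the stricter rules.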
